A study of Homo sapiens with 9 samples.

Results

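The mitochondrial ribosomal protein genes were followed in UPCI-SCC-040, a cell line from an oral squamous cell carcinoma of the tongue, exposed to TGF-β1, a growth factor whose receptors phosphorylate SMAD proteins. Members were the protein-coding genes whose GENCODE v29 symbol begins with MRPL or MRPS and a number. The rule found 78 genes among the 58233 gene identifiers of the files, and each of the 78 had enough counts to be tested among 15440 tested genes. Total RNA was measured in 9 libraries, namely 3 after 48 h and 3 after 72 h of TGF-β1 at a dose of 5 ng/ml, and 3 of control cells without TGF-β1. Replicates 1, 2 and 3 came from passages 12, 13 and 8, with 1 library of each passage in each group. No engineered allele is named in the labels. Per the labels, TGF-β1 was given in medium that lacked fetal bovine serum and antibiotics, whereas routine growth medium held both. The labels do not give the medium of the controls, so the effects of TGF-β1, of serum withdrawal and of time in culture cannot be told apart here.

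Mitochondria carry their own ribosome, which translates only the few membrane proteins encoded by mitochondrial DNA, all of them parts of the respiratory chain and of ATP synthase. The RNAs of this ribosome come from mitochondrial DNA, but all of its proteins are encoded in the nucleus, made in the cytosol and imported. MRPL names were given to proteins of the large subunit and MRPS names to those of the small subunit, some with bacterial homologues and others found only in mitochondria. A few names are misleading, since MRPS30 and MRPS18A sit in the large subunit and MRPS36 is a part of the 2-oxoglutarate dehydrogenase complex.

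Library totals ran from 12544690 to 20438727 counts. Levels are given as CPM (counts relative to the library total after TMM scaling). Squamous epithelial markers were strongly expressed, with a summed level of 24730 to 31840 CPM at 48 h and 16440 to 25700 CPM at 72 h, against 11070 to 19930 CPM in controls. Of these 9 markers, 4 were higher at 48 h, and 3 were higher and 1 lower at 72 h. The summed level of 7 fibroblast markers was 36.1 to 89.9 CPM at 48 h and 20.2 to 111.2 CPM at 72 h, against 10.2 to 12.5 CPM in controls. COL1A1, a collagen gene, carried most of it and was higher at both times, with log2 fold changes of 2.51 (adjusted p = 0.0117) and 2.29 (adjusted p = 0.0122), whereas LUM, DCN, PDGFRA, PDGFRB and THY1 did not exceed 0.80 CPM in any library. The 6 immune markers together reached at most 1.08 CPM and the 4 endothelial markers at most 2.66 CPM. The part of these marker levels in the results on the members was not tested. Replicate 3 at 72 h stood apart from the others, with 1.54% of its counts in the nuclear RNA MALAT1, against 0.247% to 0.507% in the other 8 libraries. Where a call named here was lost without that library, the value without it is given as well.

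The family as a whole was lower after TGF-β1 at both times. Summed over the 78 members, the level was 3005, 3234.2 and 3089.7 CPM in the 48 h libraries and 3217.4, 3259.6 and 2871.2 CPM in the 72 h libraries, against 4368.1, 4678.4 and 4282.7 CPM in the control libraries. All 6 treated libraries lay below the lowest control library. The group means were 3109.6 ± 115.9 CPM at 48 h and 3116.1 ± 213.1 CPM at 72 h, against 4443.1 ± 208.2 CPM in controls (SD, n = 3 each). As a share of all counts the members took 0.303% ± 0.0085 at 48 h and 0.306% ± 0.02 at 72 h, against 0.462% ± 0.0221 in controls (SD, n = 3 each). In bulk RNA, fewer cells that express a gene and less RNA per cell cannot be told apart.

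**Figure D1:**
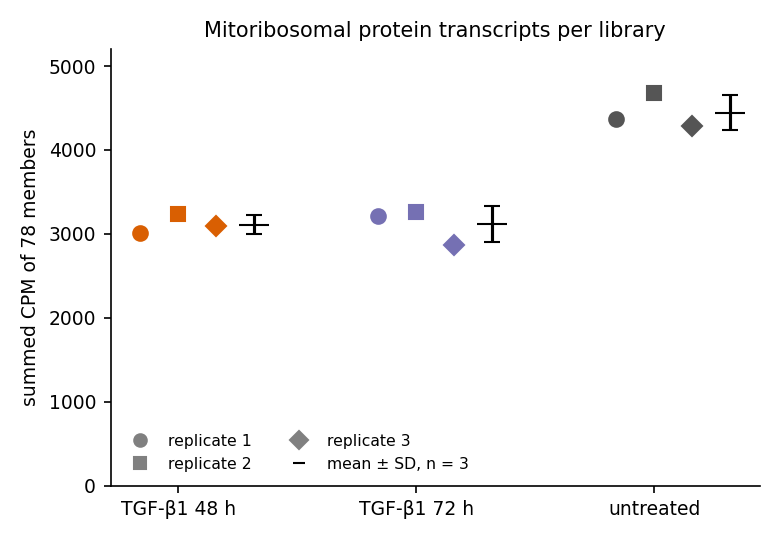
Summed CPM (y axis) of the 78 mitochondrial ribosomal protein genes in each library, grouped by treatment (x axis), with symbols for replicates and the mean ± SD of 3 libraries. The treated libraries lie between 2871.2 and 3259.6 CPM, all below the control libraries at 4282.7 to 4678.4 CPM.

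Gene by gene, 45 of 78 members were lower at 48 h and 0 were higher (quasi-likelihood test of edgeR, Benjamini-Hochberg adjusted p under 0.05 over all 15440 genes). The lower members are 57.7% of the family. No member was higher by DESeq2 at 48 h either, and 1, MRPL53, was higher at an unadjusted p under 0.05. Of all tested genes, 31.0% were called at 48 h, 16.0% lower and 14.9% higher. At 72 h, 45 of 78 members were lower and 1, MRPS6, was higher, while 39.8% of all tested genes were called, 19.4% lower and 20.4% higher. The median log2 fold change of the members was -0.476 at 48 h and -0.462 at 72 h, beside medians of -0.0019 and 0.0326 over all tested genes. These member medians correspond to levels 28.1% and 27.4% below control. The members lay within a narrow band, with lower and upper quartiles of -0.70 and -0.34 at 48 h and of -0.68 and -0.26 at 72 h, whereas the quartiles over all genes were -0.43 and 0.47, then -0.47 and 0.58.

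The shift was therefore broad and modest in size rather than carried by a few genes. Below zero stood 73 of 78 log2 fold changes at 48 h and 72 of 78 at 72 h, against 50.1% and 48.3% of all tested genes. In 64 members the 3 libraries at 48 h were all below the 3 control libraries, which is 82.1%, against 28.1% of all tested genes. At 72 h this held for 59 members or 75.6%, against 27.7% of all tested genes. A decrease of 2-fold or more was estimated for 3 members at each time. Between the called and the uncalled there was no gap, since 11 members at 48 h and 8 at 72 h lay below zero with an adjusted p between 0.05 and 0.1.

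**Figure D2:**
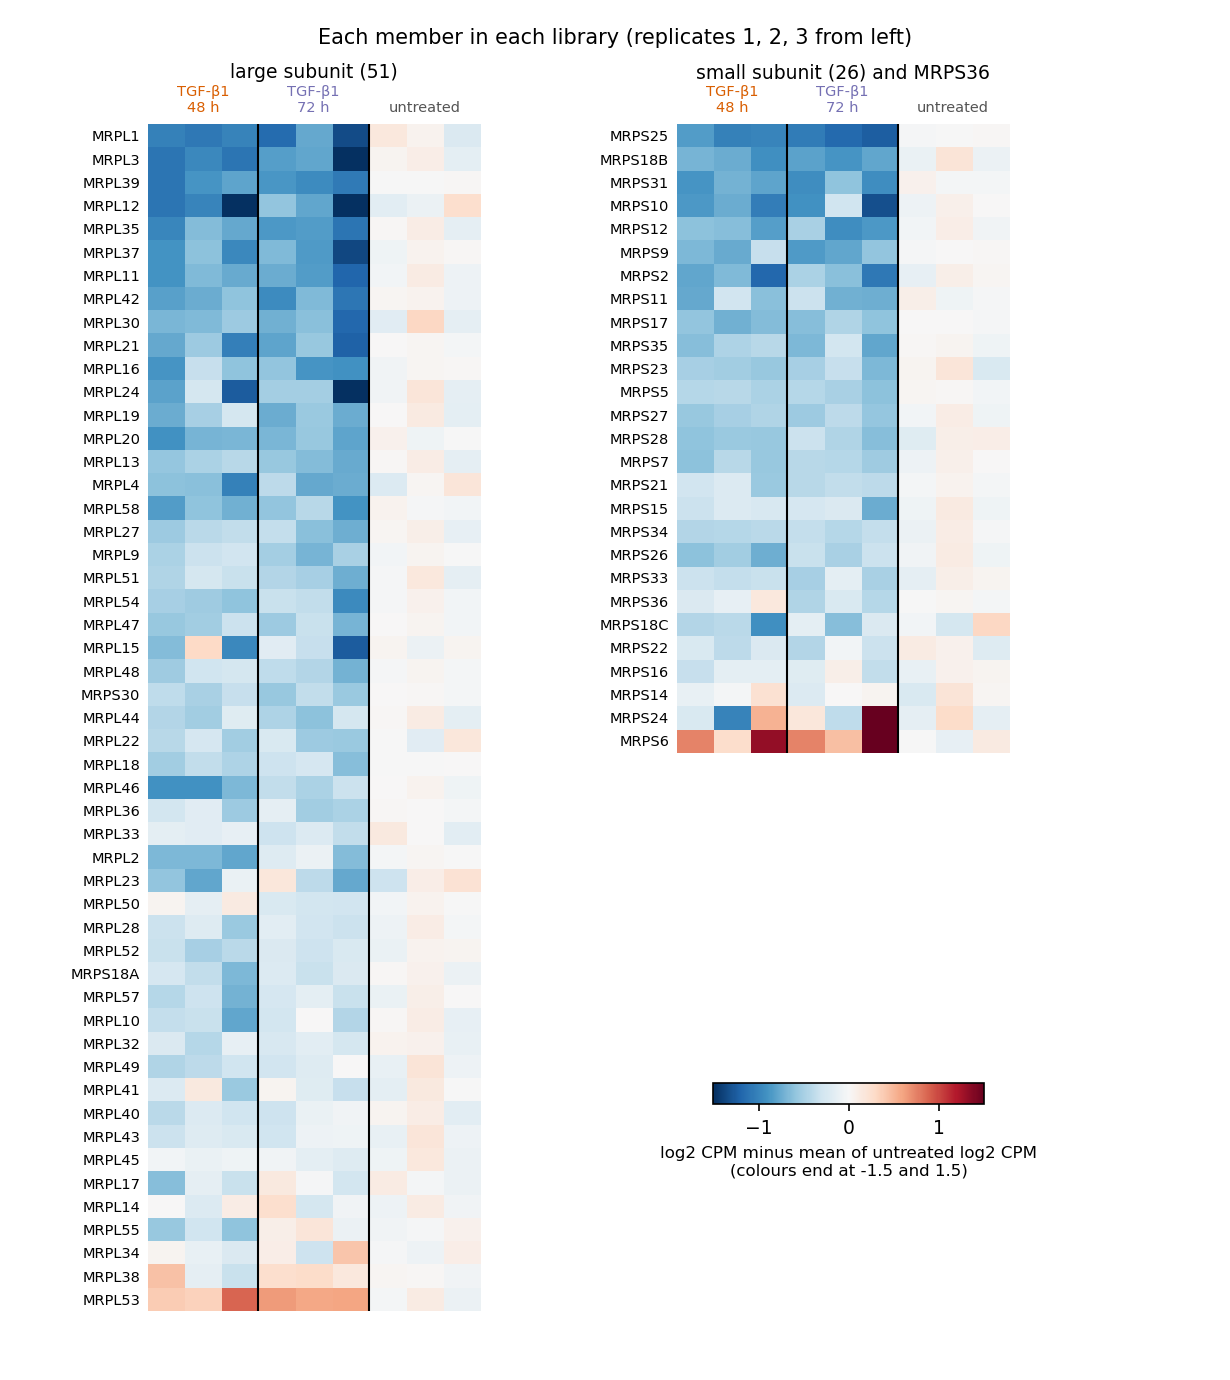
Log2 CPM of each of the 78 members (rows) in each library (columns) minus the mean log2 CPM of the 3 control libraries, for the 51 large subunit genes on the left and the 26 small subunit genes with MRPS36 on the right, ordered by their 72 h log2 fold change. Blue, for lower levels, covers most rows of both treated groups, and MRPS6, MRPS24, MRPL53 and MRPL38 at the bottom of the panels are the main red cells.

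Lower at both times were 39 members, 6 were lower at 48 h alone and 6 at 72 h alone, so that 51 of 78 were lower at 1 time or more. The 2 comparisons share their control libraries, so calls at both times are not independent. All tested genes were lower in 16.0% at 48 h and in 19.4% at 72 h. Their share lower at both times or at either time was not counted, so these joint member counts have no background beside them. Compared directly, 72 h and 48 h differed in 0 of 78 members and in 0.0% of all tested genes, higher 0.0% and lower 0.0%, at an adjusted p under 0.05, with 0 calls by DESeq2 among the members and 41 among all genes. At an unadjusted p under 0.05 there were 5 members and 1382 of all genes. The median member differed by 0.006 (log2) between the times, and the estimates at 48 h and 72 h were within 0.2 of each other in 60 members. A p above the threshold does not show that the 2 times are alike. MRPL55, a large subunit protein found only in mitochondria, had the third highest estimate after MRPS24 and MRPS6, with 28.4, 30.2 and 25.1 CPM at 72 h against 17.9, 21.7 and 17.5 CPM at 48 h. These groups did not overlap, and the log2 fold change of 72 h against 48 h was 0.55 (adjusted p = 0.466 by edgeR). Controls had 25.74, 26.31 and 27.95 CPM of MRPL55. Against control the log2 fold change was -0.48 (adjusted p = 0.023) at 48 h and 0.07 (adjusted p = 0.716) at 72 h.

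MRPS25, a small subunit protein without a bacterial homologue, had the lowest log2 fold change at 72 h. Its gene lies at chr3:15042460-15065335 on the minus strand (GRCh38). It had 14.1, 12.5 and 12.7 CPM at 48 h and 12.2, 11.3 and 10.7 CPM at 72 h, against 24.9, 25.2 and 25.7 CPM in controls. Treated and control libraries were far apart and varied little within groups. The log2 fold changes were -0.95 (SE 0.13, adjusted p = 0.00122) at 48 h and -1.15 (SE 0.13, adjusted p = 0.000438) at 72 h.

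MRPL1 is a large subunit protein with a bacterial counterpart, in which it forms the mobile L1 stalk. It had 30.6, 29.3 and 30.9 CPM at 48 h and 27.6, 36.1 and 24.3 CPM at 72 h, against 69.0, 64.1 and 53.0 CPM in controls. Every treated library was below every control library, by about 2-fold on average. The log2 fold change was -1.04 (SE 0.16, adjusted p = 0.00227) at 48 h and -1.08 (SE 0.16, adjusted p = 0.00125) at 72 h.

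MRPL3, a homologue of the bacterial protein that reaches toward the peptidyl transferase centre, was among the 5 members with the highest level per length in controls. Its CPM were 100.5, 109 and 99.9 at 48 h and 121, 124 and 67.5 at 72 h, against 221, 229 and 194 in controls. The groups did not overlap, and replicate 3 at 72 h was the lowest library. The log2 fold change was -1.06 (SE 0.21, adjusted p = 0.00577) at 48 h and -1.04 (SE 0.21, adjusted p = 0.0044) at 72 h, and it ranged from -1.18 to -0.80 at 72 h when libraries were left out.

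MRPL39, near the exit of the peptide tunnel, had closely matching values within controls. It had 31.7, 36.8 and 39.2 CPM at 48 h and 36.9, 35.2 and 32.6 CPM at 72 h, against 67.3, 67.3 and 68.4 CPM in controls. The log2 fold changes were -0.92 (adjusted p = 0.00101) and -0.95 (adjusted p = 0.000558). MRPL39, MRPS18B and MRPS25 were the members called lower at both times under every one of the 21 alternative settings as well.

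MRPL12 forms the stalk that recruits translation factors and is also known to bind the mitochondrial RNA polymerase. It had 7.98, 8.58 and 6.03 CPM at 48 h and 11.4, 9.97 and 5.38 CPM at 72 h, against 15.3, 16.1 and 20.4 CPM in controls. No treated library reached a control library, and the spread at 72 h was wide. The log2 fold change of -1.19 at 48 h (SE 0.27, adjusted p = 0.0106) was the lowest of all members at that time, and at 72 h it was -0.95 (SE 0.27, adjusted p = 0.02). Of its annotated exon bases, 68.2% are shared with the annotated gene AC139530.2, which had 0 counts in every library, so how the counting divided these reads bears on its level.

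**Figure D3:**
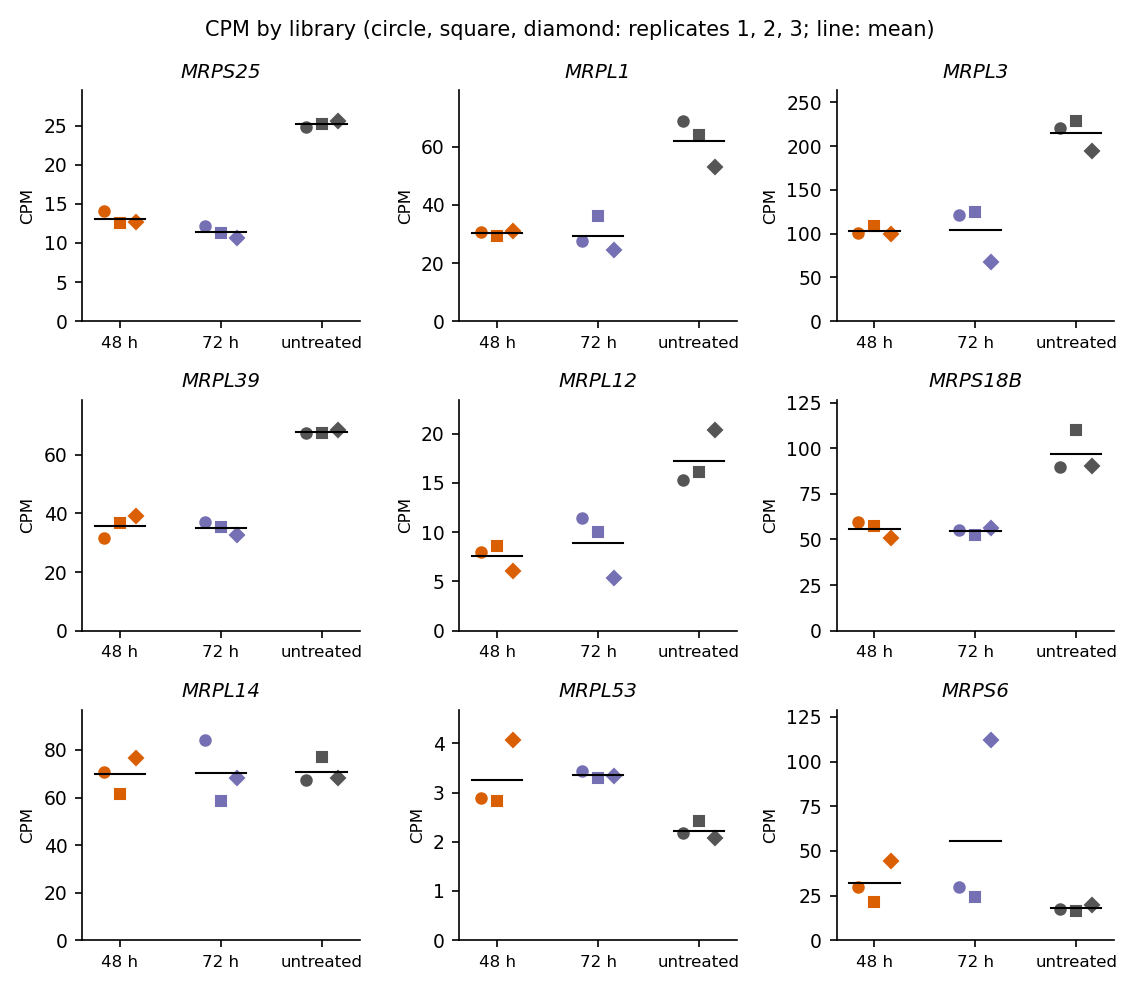
CPM (y axis, from 0) of 9 members in each library, by group (x axis), with 1 symbol per replicate and a line at the mean of 3 libraries. In MRPS25, MRPL1, MRPL3, MRPL39, MRPL12 and MRPS18B every treated library lies below every control library, MRPL14 overlaps fully, and MRPS6 is dominated by 112 CPM in replicate 3 at 72 h.

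Other members of the large subunit followed with smaller changes. MRPL35 had log2 fold changes of -0.79 and -0.93 at 48 h and 72 h (adjusted p = 0.00285 and 0.00101), and MRPL42, found only in mitochondria, had -0.72 and -0.88 (adjusted p = 0.00412 and 0.00118). MRPL20, which in bacteria is needed for assembly of the subunit, had -0.76 and -0.68 (adjusted p = 0.00216 and 0.00231). MRPL11, at the base of the stalk and the member with the second highest level per length, had 124, 145 and 137 CPM at 48 h and 138, 128 and 100.4 CPM at 72 h, against 223, 251 and 217 CPM in controls. Its groups did not overlap, and its log2 fold changes were -0.77 and -0.91 (adjusted p = 0.00467 and 0.00154). MRPL58, which acts as a peptidyl-tRNA hydrolase that frees stalled peptides and is also built into the subunit, had -0.72 and -0.62 (adjusted p = 0.00506 and 0.0067).

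Among small subunit members, MRPS10 and MRPS31 belong to the head. MRPS10 had log2 fold changes of -0.88 and -0.78 (adjusted p = 0.0149 and 0.0183), and MRPS31 had -0.80 and -0.82 (adjusted p = 0.00392 and 0.00247). MRPS12, the homologue of the bacterial S12 protein of the decoding centre, had -0.69 and -0.75 (adjusted p = 0.00708 and 0.00371). MRPS34 had the highest level per length of all members, with a mean of 90.4 RPKM (CPM divided by the exon length in kilobases) at 48 h and 93.2 RPKM at 72 h, against 121.5 RPKM in controls. It was lower by less than the median member, with log2 fold changes of -0.43 and -0.38 (adjusted p = 0.0127 and 0.0151).

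The 3 MRPS18 genes, all related to bacterial S18, differed in their values. In the class counts below, MRPS18C is placed with the bacterial homologues, and MRPS18A and MRPS18B with the members specific to mitochondria. MRPS18B had 59.5, 57.4 and 50.9 CPM at 48 h and 55.3, 52.2 and 56.1 CPM at 72 h, against 90.0, 110.0 and 90.4 CPM in controls. Treated libraries were close together and well below controls, with log2 fold changes of -0.79 (adjusted p = 0.002) and -0.83 (adjusted p = 0.00107). MRPS18A, the large subunit member of the trio, had -0.42 (adjusted p = 0.0503) and -0.25 (adjusted p = 0.19), and MRPS18C had -0.59 (adjusted p = 0.0674) and -0.33 (adjusted p = 0.242). Differences between the 3 genes were not tested, and MRPS18A and MRPS18C share 47.0% and 40.2% of their exon bases with other annotated genes.

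MRPS30 and MRPS36 carry names that do not match their place. MRPS30, a large subunit protein, had 99.0, 92.3 and 102 CPM at 48 h and 87.4, 100.3 and 88.1 CPM at 72 h, against 130, 131 and 127 CPM in controls. The groups did not overlap, with log2 fold changes of -0.40 (adjusted p = 0.018) and -0.49 (adjusted p = 0.00589). MRPS36, the 2-oxoglutarate dehydrogenase component, was not called at either time. It had 18.6, 19.9 and 24.1 CPM at 48 h and 15.7, 18.4 and 16.1 CPM at 72 h, against 21.5, 22.1 and 21.2 CPM in controls. The 48 h libraries surrounded the controls and the 72 h libraries lay below them, with log2 fold changes of -0.05 (adjusted p = 0.799) and -0.37 (adjusted p = 0.0598).

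MRPS6, a small subunit protein, was the 1 member called higher. It had 29.7, 21.2 and 44.3 CPM at 48 h and 29.6, 24.2 and 112 CPM at 72 h, against 17.7, 16.2 and 19.4 CPM in controls. Every treated library exceeded every control library, but replicate 3 at 72 h was far above the rest. The log2 fold change was 0.83 (SE 0.56, adjusted p = 0.29) at 48 h and 1.64 (SE 0.57, adjusted p = 0.0489) at 72 h. Without replicate 3 at 72 h it was 0.61 (SE 0.26, adjusted p = 0.0967). Its adjusted p at 72 h lay between 0.00412 (DESeq2) and 0.181 (no filter on low counts) over the alternatives, and it was above 0.05 when any 1 control or 48 h library was left out. SLC5A3, the gene of a sodium/myo-inositol cotransporter, overlaps exons of MRPS6 on the same strand, so reads of the 2 genes may be mixed. SLC5A3 had 181, 114 and 359 CPM at 48 h and 175, 130 and 1400 CPM at 72 h, against 65.6, 68.3 and 63.3 CPM in controls. The 6 treated libraries had the same order from high to low in SLC5A3 and MRPS6, and the part of SLC5A3 reads in the MRPS6 values was not tested.

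A few other members had estimates above zero without a call. MRPL53, of the stalk, had 2.89, 2.82 and 4.08 CPM at 48 h and 3.44, 3.30 and 3.34 CPM at 72 h, against 2.2, 2.42 and 2.08 CPM in controls. Its groups did not overlap, yet its log2 fold changes of 0.54 and 0.59 had adjusted p = 0.103 and 0.0667. MRPL53 shares 45.2% of its exon bases with other genes, and CCDC142, which overlaps it, had log2 fold changes of 0.67 and 0.71 (adjusted p = 0.0123 and 0.00705). MRPS24 had 10.1 CPM in replicate 3 at 72 h and 1.23 to 3.51 CPM in the other 8 libraries, with log2 fold changes of -0.14 (adjusted p = 0.886) and 0.99 (adjusted p = 0.222). Without that library the 72 h value was -0.09. MRPL38 had 0.04 and 0.23, and MRPL34 had -0.09 and 0.09, all with an adjusted p of at least 0.466. These members share exon bases with other annotated genes too, namely 23.2% in MRPS24, 41.1% in MRPL38 and 13.2% in MRPL34. For MRPS24 the other gene is URGCP-MRPS24, which had 0 counts in every library. The part of the overlap in these values was not tested.

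Levels per length spanned a wide range. The median member had 12.3 RPKM at 48 h and 12.6 RPKM at 72 h, against 17.2 RPKM in controls. After MRPS34 and MRPL11, the highest in controls were MRPL3 with 79.1, MRPL14 with 74.0 and MRPL51 with 63.1 RPKM. The lowest were MRPL23 with 0.36, MRPS24 with 0.94, MRPL38 with 0.95, MRPL53 with 1.65 and MRPL46 with 1.77 RPKM. With other genes MRPS24 shares 23.2%, MRPL38 41.1%, MRPL53 45.2% and MRPL46 11.3% of its exon bases. How the counting treated reads in shared exons therefore bears on these low levels. MRPL23 had as few as 10 counts in a library, too few to show a change of the size seen in other members. The members above 50 RPKM were 3 at 48 h and 2 at 72 h, against 12 in controls. MRPL14, a large subunit protein, stood out among the abundant members by its flat values, with 70.9, 61.5 and 76.7 CPM at 48 h and 84.4, 58.7 and 68.2 CPM at 72 h, against 67.3, 77.2 and 68.3 CPM in controls. The groups overlapped fully, with log2 fold changes of -0.03 (SE 0.15) and -0.01 (SE 0.15) and adjusted p = 0.914 and 0.961.

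Lower members were found in both subunits and in both evolutionary classes. In the large subunit 28 of 51 members were lower at 48 h and 26 at 72 h, with medians of -0.45 and -0.44. In the small subunit 17 of 26 were lower at 48 h and 19 at 72 h, with medians of -0.54 and -0.49. Of 44 members with a bacterial homologue, 25 and 26 were lower, and of 32 members specific to mitochondria, 19 and 18 were lower. By place, the head of the small subunit had 5 and 6 of 8 lower, the central protuberance 4 of 7 at each time, the stalk 3 of 5 at each time and the tunnel exit 2 and 4 of 8. Beside these counts, 16.0% of all tested genes were lower at 48 h and 19.4% at 72 h. The 2 of 8 at the tunnel exit at 48 h lay near that share. Differences between these classes were not tested.

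The genes are scattered over 21 chromosomes, with at most 8 on any of them, so they do not share a locus. A protein-coding gene starting within 1000 bases on the opposite strand was found for 17 of 78 members, or 21.8%, against 9.66% of 12686 tested protein-coding genes. At 48 h, 11 of the 17 members and 6 of 16 tested partners were lower, and 2 partners were higher. Of all tested genes, 16.0% were lower and 14.9% higher at that time. At 72 h, 8 members and 6 partners were lower while 5 partners were higher, beside 19.4% lower and 20.4% higher of all tested genes. A lower member with a higher partner was found in 0 pairs at 48 h and in 2 at 72 h. Of the higher partners, LRRC46, PNPLA7 and SLC7A7 were below 1 CPM in each control library. Without replicate 3 at 72 h, 6 members and 4 partners were lower and 3 partners were higher at that time. MRPL54 was lower at 72 h while its partner APBA3, which starts 965 bases away, was higher. MRPL54 had 25.1, 24.6 and 16.4 CPM at 72 h, against 31.3, 33.3 and 30.7 CPM in controls. Its 72 h log2 fold change ranged from -0.644 to -0.35 when libraries were left out. APBA3 was higher also without replicate 3 at 72 h (log2 fold change 0.65, adjusted p = 0.0253). EME2, the partner of MRPS34, had 29.1, 28.3 and 50.7 CPM at 72 h, against 19.1, 20.8 and 25.2 CPM in controls. Its log2 fold change at 72 h was 0.73 (adjusted p = 0.0308), and 0.41 (adjusted p = 0.0725) without the high library. SLC7A7, the partner of MRPL52, had 2.71, 1.42 and 11.7 CPM at 72 h, against 0.844, 0.698 and 0.788 CPM in controls, and its call (adjusted p = 0.0485) was likewise lost without replicate 3 (adjusted p = 0.184). MRPL27 and its partner EME1, a DNA repair nuclease subunit, were both lower (log2 fold change -0.56 and -1.53). In 1 case both genes are members, and each was counted above both as a member and as a partner. MRPL46 and MRPS11 start 34 bases apart and were both lower at 48 h, at -0.83 and -0.55 (adjusted p = 0.00446 and 0.0381), while at 72 h MRPS11 was lower at -0.58 (adjusted p = 0.0251, and 0.0604 without replicate 3 at 72 h) and MRPL46 had -0.39 (adjusted p = 0.0683).

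Promoter sequences from RefSeq (GRCh38.p14, 250 bases before to 50 bases after the transcription start) matched 69 of the 78 members by symbol. MRPL2, MRPL10, MRPL13, MRPL15, MRPL21, MRPL23, MRPL35, MRPS28 and MRPS36 were not matched. Exact letters of 5 motifs were searched on both strands. These were AAGATGGC for YY1, GCGCATGC for NRF1, CCGGAAGT for ETS proteins such as GABPA, CACGTG for the E-box and GGGCGG for the GC box. YY1, NRF1 and GABPA are known as regulators of nuclear genes for mitochondrial proteins. The YY1 letters were in 20 member promoters or 29%, against 5.36% of 10046 tested protein-coding genes and 3.03% of 27305 promoters in the table. ETS letters were in 15.9% of member promoters, against 8.89% and 4.44%, and NRF1 letters were in 8.7%, against 5.38% and 3.27%. The E-box was in 8.7%, against 9.83% and 7.43%, and the GC box in 60.9%, against 70.3% and 44.6%.

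**Figure D4:**
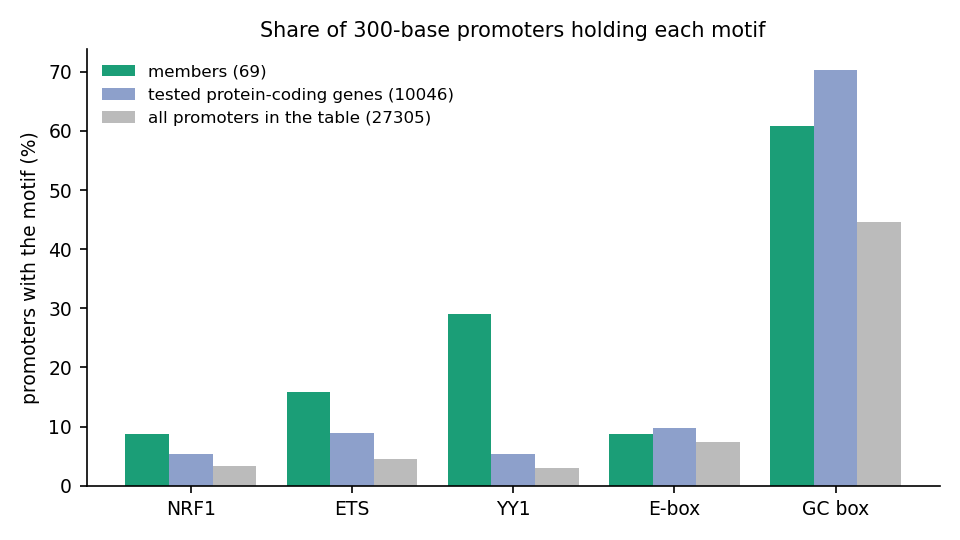
Share of 300-base promoters (y axis, percent) that hold each motif (x axis) among members, tested protein-coding genes and all promoters of the table, with the number of promoters in the legend. The YY1 motif is in 29% of member promoters and in 5.36% and 3.03% of the other sets, and the GC box is in 60.9% of member promoters and 70.3% of those of tested genes.

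In 15 members the YY1 letters ran in the direction of transcription just downstream of the start, beginning between bases 7 and 36 (base 1 is the first transcribed base). This was 21.7% of member promoters, against 3.16% of tested protein-coding genes. The letters contain ATG, and in 12 of the 15 that ATG is the annotated start codon of the gene, against 2.26% of tested genes with such an arrangement and 17.4% of members. The windows of 14 of these members, aligned on the motif in capitals by which they were chosen, are shown with the bases on either side of it. They are ordered from the lowest to the highest log2 fold change at 72 h, and MRPL22, the other member, is not shown because its window runs past the promoter table.
MRPL42 (chr12:93467511-93467540, plus strand): aggattgaaacAAGATGGCgggttcgtggt
MRPS18B (chr6:30617852-30617881, plus strand): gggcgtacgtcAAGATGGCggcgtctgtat
MRPS10 (chr6:42217834-42217863, minus strand): tcgggaccggcAAGATGGCggcgcggacag
MRPL20 (chr1:1407260-1407289, minus strand): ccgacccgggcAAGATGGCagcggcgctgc
MRPL51 (chr12:6493223-6493252, minus strand): gggtaaggcccAAGATGGCtgtcttcgcct
MRPS27 (chr5:72320206-72320235, minus strand): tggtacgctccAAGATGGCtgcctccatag
MRPS30 (chr5:44808949-44808978, plus strand): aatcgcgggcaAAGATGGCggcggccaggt
MRPS7 (chr17:75261887-75261916, plus strand): cgtggccagccAAGATGGCtgcccccgcag
MRPL46 (chr15:88467362-88467391, minus strand): tgggagaacgaAAGATGGCggcgcccgtaa
MRPL50 (chr9:101398577-101398606, minus strand): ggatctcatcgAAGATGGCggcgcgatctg
MRPS18A (chr6:43687764-43687793, minus strand): gtaggtttttgAAGATGGCggccctcaagg
MRPL45 (chr17:38297170-38297199, plus strand): tttgcgggaacAAGATGGCagcccccatac
MRPL38 (chr17:75904860-75904889, minus strand): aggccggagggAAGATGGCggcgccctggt
MRPS24 (chr7:43869480-43869509, minus strand): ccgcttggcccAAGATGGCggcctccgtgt

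The first of these, MRPL42, had a log2 fold change of -0.88 at 72 h (adjusted p = 0.00118). The last, MRPS24, had 0.99 (adjusted p = 0.222), a value that rested on replicate 3, with 10.1 CPM beside 2.76 and 1.88 CPM. MRPL38, next to last, had 0.23 (adjusted p = 0.466). The same letters at this place thus belonged to members that were called lower and to members that were not called. Of the 15 members with the motif at this place, 8 were lower at 48 h and 9 at 72 h. Members with YY1 letters anywhere in the promoter had a median log2 fold change of -0.42 at 48 h and -0.45 at 72 h, beside -0.48 and -0.50 in members without them. With ETS letters 7 of 11 members were lower at each time, with a median of -0.52 at 72 h beside -0.45 without them. With NRF1 letters 2 of 6 members were lower at each time, and at 72 h the median was -0.29 beside -0.50 in the 63 without, of which 39 were lower. The E-box gave 2 of 6 lower and a median of -0.35 at 72 h, beside -0.50. With the GC box 21 of 42 members were lower at 72 h with a median of -0.38, beside 20 of 27 and -0.53 without it. Beside these counts, 57.7% of all members were lower at each time, and 16.0% and 19.4% of all tested genes at 48 h and 72 h. Differences between members with and without a motif were not tested. A match is a description of the letters and not a measured binding site.

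MRPS18B and MRPL17 show how promoters with the same kind of motif belonged to members that were and were not called. The MRPS18B promoter holds NRF1 letters at base -23 and YY1 letters at base 24, both in capitals, and this gene was lower at both times. The MRPL17 promoter holds NRF1 letters at bases -81, -79 and -43, the first of these overlapping the second, also in capitals. MRPL17, a protein of the tunnel exit, had 37.0, 52.1 and 45.5 CPM at 48 h and 63.3, 56.6 and 47.3 CPM at 72 h, against 62.3, 56.1 and 54.2 CPM in controls. The 48 h libraries lay below the controls and the 72 h libraries overlapped them, with log2 fold changes of -0.36 (adjusted p = 0.106) and -0.04 (adjusted p = 0.839).
MRPS18B (chr6:30617590-30617889, plus strand): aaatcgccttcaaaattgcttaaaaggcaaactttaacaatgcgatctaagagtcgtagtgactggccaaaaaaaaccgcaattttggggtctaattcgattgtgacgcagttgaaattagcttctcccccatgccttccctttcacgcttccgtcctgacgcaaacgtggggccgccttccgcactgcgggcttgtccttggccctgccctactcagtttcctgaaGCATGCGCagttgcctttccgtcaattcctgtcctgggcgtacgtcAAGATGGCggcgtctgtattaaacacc
MRPL17 (chr11:6683291-6683590, minus strand): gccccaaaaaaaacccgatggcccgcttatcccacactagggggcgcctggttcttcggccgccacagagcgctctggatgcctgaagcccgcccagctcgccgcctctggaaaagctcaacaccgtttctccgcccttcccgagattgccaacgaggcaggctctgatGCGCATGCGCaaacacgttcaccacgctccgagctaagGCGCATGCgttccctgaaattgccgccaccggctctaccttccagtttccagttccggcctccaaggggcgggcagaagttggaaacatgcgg

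Of the regulators named by these motifs, YY1 was not called, NRF1 was lower at both times and GABPA at 72 h. YY1 itself had log2 fold changes of 0.003 and -0.09 (adjusted p = 0.988 and 0.622). NRF1, the activator of many nuclear genes for the respiratory chain, had -0.96 (adjusted p = 0.00101) and -0.81 (adjusted p = 0.00118), with a mean of 17.8 CPM at 48 h and 19.8 CPM at 72 h, against 34.7 CPM in controls. GABPA had -0.28 (adjusted p = 0.203) and -0.58 (adjusted p = 0.0158). In the list of 10 tested nuclear regulators 4 were lower and 1 higher at 48 h, and 6 were lower and 2 higher at 72 h. Among all tested genes, 16.0% were lower and 14.9% higher at 48 h, and 19.4% lower and 20.4% higher at 72 h. PPARGC1B (-1.35 and -1.70) and PPRC1 (-1.24 and -1.32), both coactivators related to PGC-1α, were the lowest, and TFE3 (0.80 and 0.98) and ESRRA (0.30, not called, and 0.53) were the highest. The adjusted p of ESRRA at 72 h was 0.0502 without replicate 3.

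Genes whose products work with the mitoribosome were in part lower too. Lower at 48 h and 72 h were 56.2% and 50% of translation factors, 46.4% and 42.9% of assembly factors and 35% and 40% of synthetase genes. Mitoribosomal proteins with other symbols had 20% at each time, beside 16.0% and 19.4% of all tested genes. Of 5 mitoribosomal proteins with other symbols, PTCD3 was lower at both times (-0.35 and -0.51), and DAP3, AURKAIP1, CHCHD1 and GADD45GIP1 had values of -0.32, -0.04, -0.19 and -0.42 at 72 h, none of them called. Of 16 tested mitochondrial translation factors, 9 were lower at 48 h and 8 at 72 h, with medians of -0.51 and -0.40. METAP1D and GUF1, a methionine aminopeptidase and a back-translocation GTPase, had -1.11 and -0.94 at 72 h, and the called factors nearest zero at 72 h were OXA1L and TUFM, at -0.32 and -0.47. Of 28 assembly and ribosomal RNA factors, 13 and 12 were lower, with medians of -0.46 and -0.37. The lowest at 72 h were MRM2, a methyltransferase of the large ribosomal RNA (-1.08), and SLIRP, a partner of LRPPRC in mitochondrial mRNA stability (-1.06), and those nearest zero among the called were DHX30 and NOA1, at -0.47 each. Of 20 mitochondrial aminoacyl-tRNA synthetase genes and amidotransferase subunits, 7 and 8 were lower, with MARS2 (-1.05) and WARS2 (-0.89) the lowest at 72 h and CARS2 (-0.52) and QRSL1 (-0.55) the nearest to zero.

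None of the mRNAs and ribosomal RNAs of the mitochondrial genome itself was called. Of 13 mitochondrially encoded mRNAs, 0 were called by edgeR at 48 h and at 72 h, with medians of -0.02 at each time. DESeq2 called 0 of them as well, and at an unadjusted p under 0.05 there were 0 at 48 h and 1 at 72 h, MT-CO1, with a log2 fold change of 0.45. Without replicate 3 at 72 h, 1 of the 13 was called higher at 72 h, MT-ND3, with 0.79 (adjusted p = 0.0204). The 2 ribosomal RNAs of the mitoribosome were not called by either tool, with 0 at an unadjusted p under 0.05 against control. MT-RNR1 had log2 fold changes of -0.64 (adjusted p = 0.466) and 1.00 (adjusted p = 0.225), and MT-RNR2 had -0.20 (adjusted p = 0.74) and 0.66 (adjusted p = 0.233). A change of the size seen in the transcripts of the members was therefore not detectable for these 2 RNAs. Replicate 3 was the highest 72 h library for both, with 110.4 CPM of MT-RNR1 beside 25.2 and 21.8 CPM, and without it the values at 72 h were -0.15 (adjusted p = 0.731) for MT-RNR1 and 0.28 (adjusted p = 0.626) for MT-RNR2. Mitochondrial transcripts took only 0.109% to 0.167% of counts per library. Mean control levels of the 13 mRNAs ran from 1.08 CPM (MT-ATP8) to 371.7 CPM (MT-CO3), with 10.6 CPM for MT-ND1, beside 230.3 CPM for the member MRPL11. Whether mitochondrial reads were lost in library preparation, mapping or counting was not tested. The values therefore do not show that mitochondrial RNA levels were unchanged. Among 5 genes of mitochondrial transcription, TFAM, which packages and activates mitochondrial DNA (-0.58 and -0.77), and TFB2M (-0.68 and -0.64) were lower at both times and MTERF1 at 72 h (-0.72), while POLRMT (0.37) and TEFM (-0.11) were not called. The adjusted p of TFB2M at 72 h was 0.0543 without replicate 3.

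**Figure D5:**
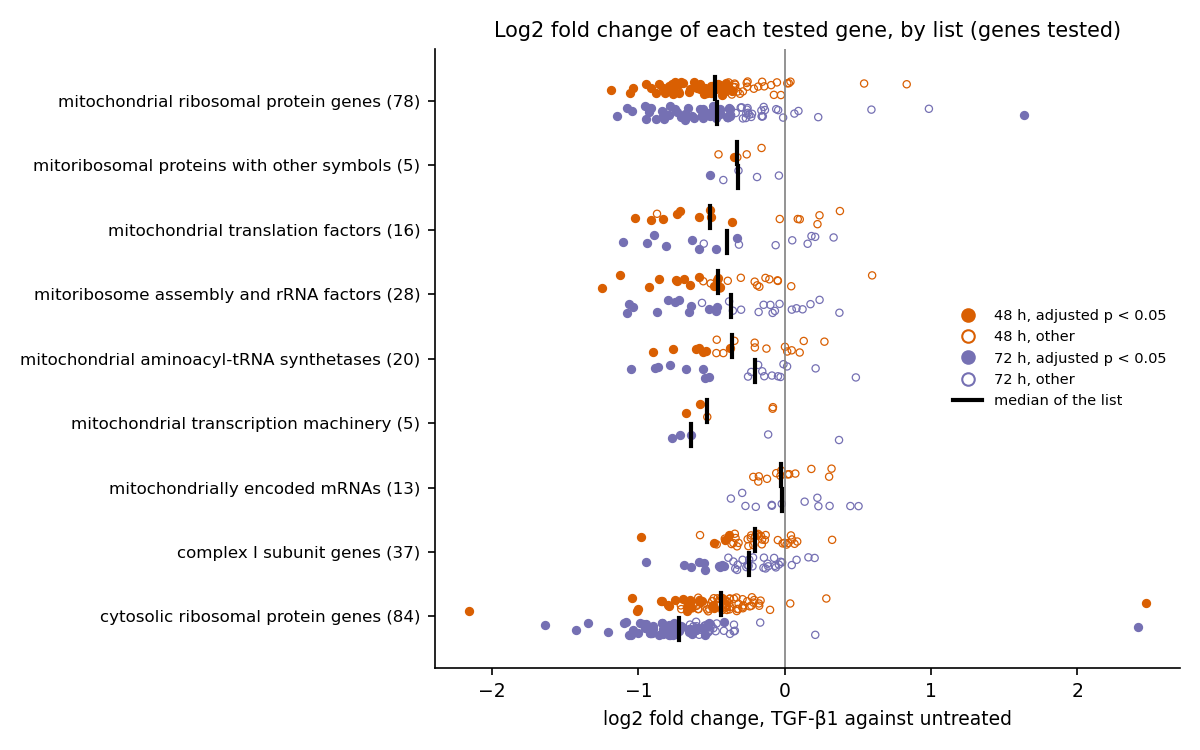
Log2 fold change against untreated cells (x axis) of each tested gene in 9 lists (y axis, with the number tested), at 48 h above and at 72 h below in each row, filled where the adjusted p was under 0.05, with a bar at the list's median. The bars of the mitochondrial ribosomal protein genes stand at -0.476 and -0.462, and those of the mitochondrially encoded mRNAs at -0.024 and -0.02.

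Other large complexes served as a measure of scale. Of 37 tested complex I subunit genes, whose products include partners of mitochondrially made proteins, 4 were lower at 48 h and 10 at 72 h, with medians of -0.20 and -0.25. These are 10.8% and 27% of the list, beside 16.0% and 19.4% of all tested genes, and without replicate 3 at 72 h the count at 72 h was 4. Of 84 tested cytosolic ribosomal protein genes, 20 were lower and 1 higher at 48 h and 56 lower and 1 higher at 72 h, with medians of -0.44 and -0.73. Their summed level was 10770 to 19110 CPM at 72 h, against 24200 to 28370 CPM in controls. Without replicate 3 at 72 h, 50 were lower at that time, with a median of -0.55, and 1, RPL3L, was higher. The list was taken by symbol, so besides core ribosomal proteins it includes the paralogues RPL3L, RPL7L1, RPL22L1, RPL26L1 and RPS27L. Differences between the lists were not tested, and all lists share the control libraries.

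Leaving out 1 library at a time, 26 to 54 members were lower at 48 h, with 26 without replicate 2 of the controls and 28 without replicate 1 at 48 h, and 32 to 44 were lower at 72 h. Without replicate 3 at 72 h, 40 members were lower at 72 h and the median was -0.40. Leaving out a whole passage gave 3, 10 and 38 lower members at 48 h without replicates 1, 2 and 3, and 18, 21 and 33 at 72 h. At 48 h these were 3.85%, 12.8% and 48.7% of members, beside 2.27%, 3.11% and 15.1% of all tested genes in the same fits. At 72 h they were 23.1%, 26.9% and 42.3%, beside 9.94%, 6.77% and 16.0% of all tested genes. In none of these fits did a member called lower change its sign, and the member median stayed between -0.51 and -0.43 at 48 h and between -0.50 and -0.40 at 72 h.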

How the data were processed

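RNA-seq gene counts of 9 libraries were analysed. Per the labels' protocols, an RNeasy kit yielded the total RNA and a NEBNext Ultra kit the libraries. The authors deposited a raw count of reads per Ensembl gene and library, on hg38 per the submitters' processing notes, which name featureCounts 1.5.0-p1, STAR 2.5.2a, FastQC 0.11.5 and bcl2fastq 2.17.1.14. Which annotation and strand setting the counting used, and how it treated reads of overlapping genes, is not given in the sources used here, so members that share exons with other genes are uncertain.

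Symbols, coordinates and exon lengths came from GENCODE v29. Tests used edgeR 4.0.16 (R 4.3.3) on the 9 libraries together, with group as the factor (6 residual degrees of freedom), TMM scaling, filterByExpr, robust dispersion and the quasi-likelihood F test, with Benjamini-Hochberg control at 0.05 across 15440 genes. Standard errors are approximate and derive from the F statistic (absolute log2 value divided by its square root). CPM use TMM-scaled totals, and RPKM divide them by the union of exon bases. The script was tested on simulated data. Depth is the total count per library. The labels set libraries of a group apart by passage only, so p-values measure the spread between these samples, which may be technical.

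The members and lists were chosen with earlier results of these data known. Named members were those with the 6 highest and 6 lowest estimates at either time, the 3 highest and 3 lowest at 72 h against 48 h, the 8 with the smallest adjusted p at both times, members called higher, the 5 highest and 5 lowest RPKM in controls, and 9 chosen for a known role. Of the translation, assembly, synthetase and regulator lists, the 2 highest and 2 lowest called genes at 72 h were named, and all of lists of 5. Complex I, cytosolic ribosomal and marker lists are given by counts, although the rule covered them. Members and other genes named for their promoters, partners, motifs, sign changes or a high library, and COL1A1, were chosen after their values were seen, as were the offsets for GC content and transcript length.

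The labels give same-numbered libraries 1 passage, so an alternative fit used the replicate number as a block. Residuals around group means of same-numbered libraries had correlations of -0.03 to 0.49. Alternatives were DESeq2 1.42.0, other scalings and filters, 2-group fits and omission of libraries or passages.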

Additional observations from a re-analysis of the deposited data

How the results depend on the processing

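The median member log2 fold change stayed between -0.484 and -0.421 at 48 h, between -0.467 and -0.402 at 72 h and between -0.014 and 0.01 for 72 h against 48 h in the settings that kept all libraries, with 33 to 50 and 35 to 45 members lower. Leaving out libraries or passages gave medians of -0.514 to -0.434, -0.503 to -0.405 and -0.048 to 0.055, 3 to 54 and 18 to 44 members lower, and 0 to 1 members higher at either time. With the replicate block, 46 members were lower at 48 h and 45 at 72 h, with medians of -0.484 and -0.46, and the pairing changed no count by over 1.5 times. In a fit of only the 2 groups compared, 1 member was higher at 48 h and 0 at 72 h, and without any filter the 1 higher member at 72 h was MRPS24, not MRPS6 (adjusted p = 0.181). The difference of the summed level at 48 h from control was -34.4% on library totals without TMM factors and -30% with them. Over all 78 members, signs changed in 0 to 5 members per setting, none of them called with either sign. At 48 h these were MRPS36 (0.002 with upper-quartile factors, 0.022 with GC and length offsets and 0.02 with offsets and block), MRPL14 (0.03 with upper-quartile factors and 0.013 with 2 groups), MRPL45 (0.039 and 0.042) and MRPL38 (-0.125 and -0.139), the last pairs with offsets and with offsets and block. At 72 h they were MRPL14 (0.041 with upper-quartile factors and 0.006 without a filter), MRPL17 (0.005 with upper-quartile factors, 0.078 and 0.071), MRPL45 (0.02 and 0.022), MRPS14 (0.143 and 0.151), MRPL55 (-0.103 and -0.109) and MRPL38 (-0.146 and -0.145), with offsets and with offsets and block where no setting is named. Leaving out libraries gave ranges across zero at 48 h for MRPL14 (-0.123 to 0.142), MRPL34 (-0.175 to 0.019), MRPL38 (-0.225 to 0.186), MRPL45 (-0.123 to 0.045), MRPL50 (-0.047 to 0.138), MRPS14 (-0.08 to 0.185), MRPS24 (-0.628 to 0.332) and MRPS36 (-0.177 to 0.024). At 72 h this held for MRPL14 (-0.199 to 0.17), MRPL17 (-0.146 to 0.066), MRPL23 (-0.719 to 0.006), MRPL34 (-0.087 to 0.261), MRPL55 (-0.006 to 0.174), MRPS14 (-0.167 to 0.043) and MRPS24 (-0.158 to 1.516). The causes were not tested. With 3 libraries a group, members with few counts, such as MRPL23, could not show a change of the family's size.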
